A study of Mus musculus with 10 samples.

Results

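The genes of the major histocompatibility complex (MHC) and of antigen processing were followed in the livers of 10 mice, 4 of them healthy and 6 with 1 of 2 forms of experimental bile duct inflammation. Members were the gene models whose symbol starts with H2-, the mouse MHC prefix, or is 1 of 15 named antigen processing genes, which gave 55 of the 59408 models in the table. Of these, 43 reached 10 normalised reads in at least 3 libraries and were tested. The 43 comprised 2 classical class I heavy chains (H2-K1 and H2-D1), B2m, 14 nonclassical class I heavy chains, 2 class I pseudogenes, 4 class II chains, 6 class II chaperones, 11 genes of class I peptide supply, 2 regulators, and H2-Ke6 // Slc39a7, which encodes no MHC chain. The 12 members that stayed below the filter were H2-Ea-ps and 11 nonclassical class I chains (H2-M1, H2-M5, H2-M9, H2-M11, H2-M10.1 to H2-M10.6 and H2-T3). H2-Ea-ps had 0 reads in all 10 libraries, and the highest value among the 11 chains was 5.11 normalised reads, for H2-T3. Of the 14 tested nonclassical chains, H2-Q5, H2-Bl and H2-T10 are annotated as polymorphic pseudogenes in GENCODE M21.

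All mice were wild-type C57BL/6, and every liver was collected at day 35, counted from the induction of disease in the model mice. The 4 control mice were untreated. The 3 mice of the primary biliary cholangitis (PBC) model, an autoimmune model, received 100 µg of 2-octynoic acid coupled to bovine serum albumin into the peritoneum on days 0, 14 and 28, first in complete and then in incomplete Freund's adjuvant. On days 0 and 14 they also received 2 µg of α-galactosylceramide, a glycolipid that CD1d presents to NKT cells, into a vein. The 3 mice of the primary sclerosing cholangitis (PSC) model, described as non-autoimmune, were fed 3,5-diethoxycarbonyl-1,4-dihydrocollidine (DDC), which damages the biliary epithelium, at 0.089% of the diet by weight. DDC was given in courses of 2 weeks and 1 week, with 1 week of regular food between them, and ended before collection. No control received adjuvant, albumin or glycolipid, so the parts of the PBC regimen cannot be told apart. The sex and age of the mice were not given in the sources used here.

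MHC class I molecules consist of a heavy chain and β2-microglobulin (B2m), are found on nearly all nucleated cells and present peptides made in the cytosol to CD8 T cells. These peptides are cut by the proteasome, in which interferon exchanges catalytic subunits for those of the immunoproteasome, carried into the endoplasmic reticulum by TAP and loaded with the help of tapasin. Class II molecules present peptides from endosomes to CD4 T cells and are made mainly by dendritic cells, B cells and macrophages, which in the liver include Kupffer cells. Cd74, the invariant chain, holds the class II groove until endosomal proteases remove it and H2-DM exchanges its remnant for a peptide. C57BL/6 mice carry the H-2b haplotype, which lacks a working E alpha chain.

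Transcription of class II genes rests on a promoter module with an X box, bound by RFX factors, and a Y box, an inverted CCAAT box bound by NF-Y, to which the coactivator CIITA is recruited. NLRC5, a relative of CIITA, acts at class I promoters. Promoter sequences of the members were taken from RefSeq on GRCm38.p6, the same assembly as mm10, as windows of 250 bases before to 50 bases after a transcript start. The 6 stretches below were chosen because they hold the core letters of both boxes, or of the Y box alone. They lie upstream of genes whose values are given further on. Only exact letters were searched, so a stretch without the X box core can still hold an X box of other letters. The H2-DMb2 stretch starts too near its Y box to reach the X box spacing given below. Capitals mark GATTGG, the core of the Y box, its reverse complement CCAATC, the X box core AGCAAC and, in B2m, the interferon response element, searched as a pair of GAAA runs with any 2 bases between them.
H2-Eb1 (chr17:34305757-34305831, plus strand): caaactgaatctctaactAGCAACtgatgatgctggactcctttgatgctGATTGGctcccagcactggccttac
H2-Ob (chr17:34238805-34238869, plus strand): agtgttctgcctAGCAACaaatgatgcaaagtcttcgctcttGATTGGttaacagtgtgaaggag
H2-Aa (chr17:34287859-34287923, minus strand): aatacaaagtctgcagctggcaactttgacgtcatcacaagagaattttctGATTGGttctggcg
H2-DMb2 (chr17:34145139-34145189, plus strand): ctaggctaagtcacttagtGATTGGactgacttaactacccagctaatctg
H2-Q6 (chr17:35424750-35424814, plus strand): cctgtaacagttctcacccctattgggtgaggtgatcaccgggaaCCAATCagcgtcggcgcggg
B2m (chr2:122147542-122147651, plus strand): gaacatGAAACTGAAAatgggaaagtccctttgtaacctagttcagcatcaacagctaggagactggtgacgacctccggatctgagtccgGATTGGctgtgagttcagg

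Cd74, on chromosome 18, was left out of the search, although the shares over all promoters keep that chromosome, and no window was found for H2-Ab1. On either strand, GATTGG lay in a window of 8 of the 8 class II genes that were searched, against 16.1% of 32851 promoters of the same length, in 8 of 12 class I chains including B2m, and in 3 of 9 genes of class I peptide supply. The longer CTGATTGG, of which GATTGG is a part, was found for 4 of 8 class II genes (H2-Aa, H2-Eb1, H2-Eb2 and H2-Oa), for 5 of 12 class I chains (H2-D1, H2-K1, H2-Q6, H2-Q7 and H2-T23), for 2 of 9 genes of class I peptide supply (Psmb9 and Tap1) and in 4.1% of all promoters. AGCAAC was found for 4 of 8 class II genes (H2-Eb1, H2-Eb2, H2-Oa and H2-Ob), for 2 of 12 class I chains (H2-M3 and H2-T23), for 0 of 9 genes of peptide supply and in 14.8% of all promoters. Its first base lay 32, 32, 33 and 30 bases upstream of the first base of GATTGG in these 4 class II genes, as the H2-Eb1 and H2-Ob stretches above show. The interferon response element was found for 0 of 8 class II genes and for 3 of 12 class I chains (B2m, H2-T22 and H2-T23) and 2 of 9 genes of peptide supply (Erap1 and Psme1), against 3.44% of all promoters. TTCNNNGAA, the interferon gamma activated site, was found for H2-DMb2, H2-M3 and Psmb8 among the members, and in 8.3% of all promoters. A gene counted if any of its windows held the match, whereas the shares are over single promoters. The windows of Psmb9 and Tap1 overlap, and the Y box matches of these genes are the same site. Both Y box counts for peptide supply therefore include that site under each of the genes, and these are not separate occurrences. For H2-DMa GATTGG was in the later window, at position -199, and not in the earlier. In H2-M3 and H2-T23 AGCAAC lay after the transcript start. A match is a description of letters, and binding was not measured here.

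Libraries were poly(A) RNA of whole liver, with 38272053 to 95422289 reads recovered per library. Summed reads of 6 hepatocyte markers, among them Alb and Apoa1, were far above those of every other marker list in all 10 libraries. Control 2 stood apart, with 13.7% of its reads from mitochondrial genes against at most 8.67% in the other 9 libraries. The results whose call ended when it was left out are named below. Values below are normalised reads per library. A change is the difference between group means of log2(normalised reads + 1) with its standard error, and a call is a Benjamini-Hochberg adjusted p under 0.05 from limma over 18390 genes.

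In the PBC model 24 of the 43 members rose against the controls and 0 fell, where 7.6% of all tested genes were called higher and 2.34% lower. No member was lower in either model by edgeR or DESeq2, or at an unadjusted p under 0.05 by limma. The median change in PBC was 1.00, against 0.01 over all tested genes. In the PSC model 13 members rose and 0 fell, where 8.25% of all genes were called higher and 6.48% lower, and the median change was 0.47, against 0.06. Both comparisons use the same 4 control livers. In both models 11 members were called higher (Cd74, H2-Aa, H2-Ab1, H2-Eb1, H2-DMa, H2-DMb1, H2-D1, H2-M2, Tap2, Psmb10 and Pdia3), 13 in PBC alone and 2 in PSC alone (H2-Q1 and the pseudogene H2-T-ps). A call in 1 model alone does not show that the models differ, and their difference is tested directly further on. Without PSC 11, or without PSC 14, the PSC count was 6 members. Without control 2 and PBC 7 the counts were 18 in PBC and 10 in PSC. Between the models, 6 members were higher in PBC and 1 was lower, where 1.11% and 1.13% of all genes were called.

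**Figure D1:**
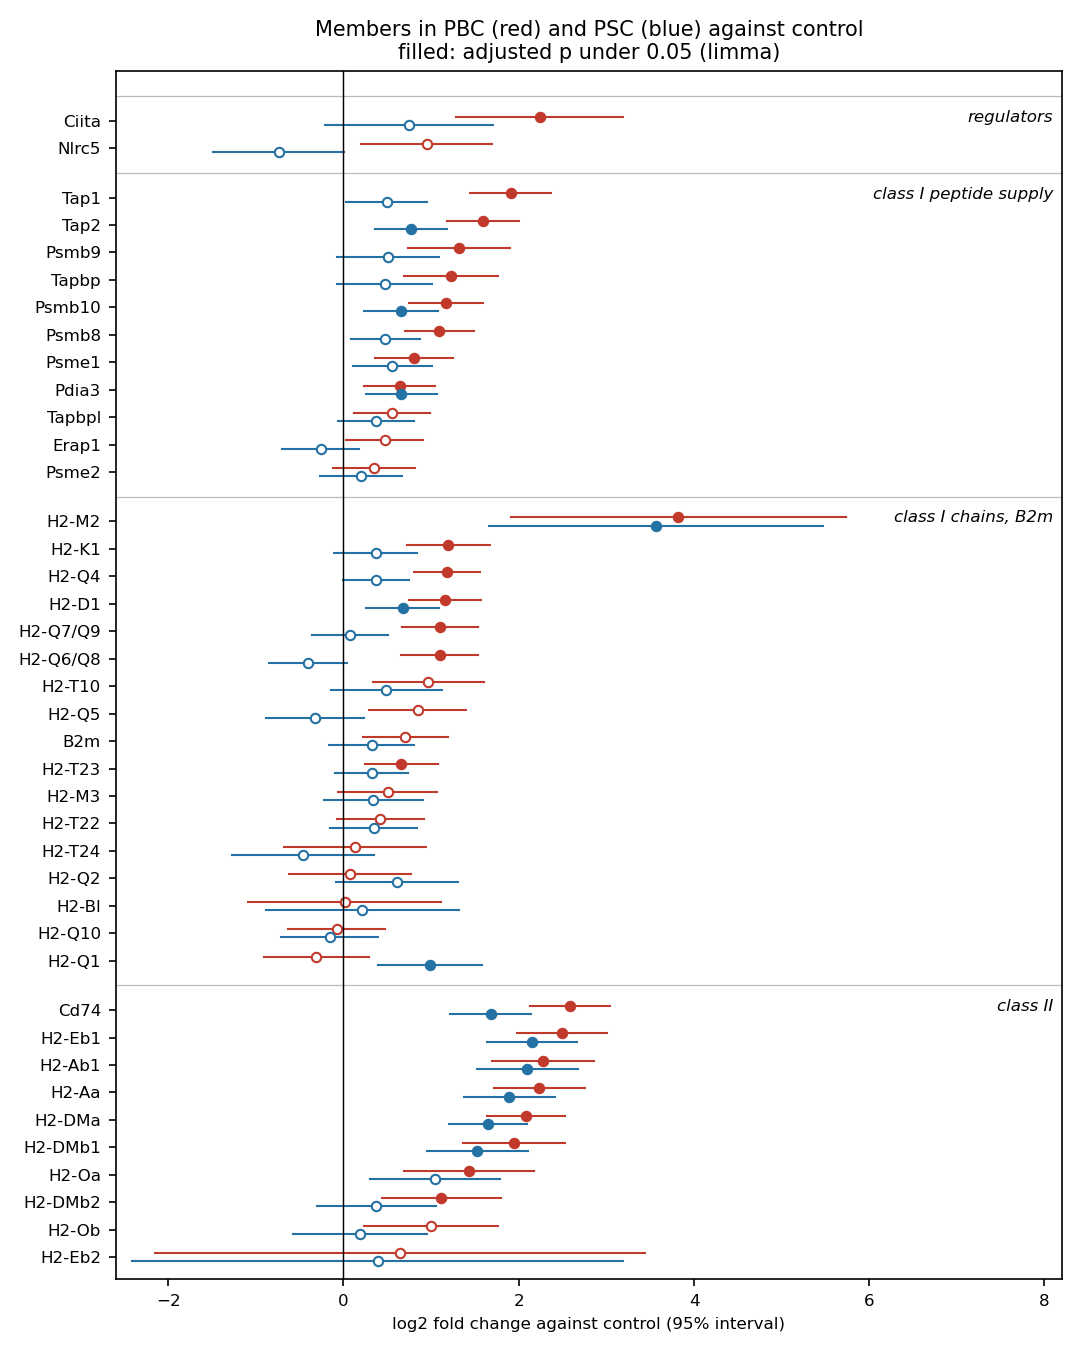
Change of the tested members against the 4 control livers on the log2(normalised reads + 1) scale, in the PBC model (red) and the PSC model (blue). The pseudogenes H2-K2 and H2-T-ps and the member H2-Ke6 // Slc39a7 are not shown. Points are limma estimates and bars are 95% intervals, filled points are called at an adjusted p under 0.05, and members are grouped by role. Apart from H2-M2, the points furthest to the right are Cd74 (2.58) and H2-Eb1 (2.49) in PBC, and no filled point lies to the left of 0.

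Class II genes were higher in both models. Of 10 tested class II chains and chaperones, 8 rose in PBC with a median change of 2.01 over the 10, and 6 rose in PSC with a median of 1.59. In bulk liver, a change in the number of cells that make a transcript and a change in RNA per cell cannot be told apart, here and for every result below. H2-Aa (chr17:34282744-34287819 in mm10), the alpha chain of the A molecule, had 4911, 3178, 6634 and 5535 normalised reads in controls 1, 2, 3 and 4. It had 21041, 27241 and 21245 in PBC livers 7, 8 and 9, and 14904, 19707 and 20486 in PSC livers 11, 13 and 14. The groups of either model did not overlap with the controls, and the changes were 2.23 ± 0.24 (adjusted p = 0.00015) in PBC and 1.89 ± 0.24 (adjusted p = 0.000325) in PSC. H2-Ab1 (chr17:34263227-34269418), its partner beta chain, had 2351, 1416, 3334 and 2457 in the controls, 9619, 13506 and 10449 in PBC and 7455, 10675 and 11801 in PSC, in the same order of livers. It was 4.84-fold higher in PBC (adjusted p = 0.000263) and 4.28-fold higher in PSC (adjusted p = 0.000331), with PBC and PSC livers overlapping each other. H2-Eb1 (chr17:34305867-34316674), the E beta chain whose promoter is shown above, had 2942, 1832, 3814 and 3202 in the controls, 15217, 17107 and 15828 in PBC and 9971, 13999 and 14486 in PSC. Every PBC liver was above every PSC liver and every PSC liver above every control, with changes of 2.49 ± 0.24 (adjusted p = 7.78e-05) in PBC and 2.15 ± 0.24 (adjusted p = 0.000109) in PSC. H2-Eb2, the fourth class II chain in the table, was low throughout (5.18, 0, 5.11 and 13.9 in the controls, 7.46, 51.0 and 0 in PBC and 4.69, 1.62 and 16.4 in PSC) and was not called in any comparison.

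Cd74, the invariant chain, had 5486, 3807, 4516 and 6857 in the controls, 25136, 34986 and 31302 in PBC and 15335, 16368 and 16789 in PSC. It was 5.99-fold higher in PBC (2.58 ± 0.21, adjusted p = 2.26e-05) and 3.20-fold higher in PSC (1.68 ± 0.21, adjusted p = 0.000316), and the 3 groups did not overlap. H2-DMa and H2-DMb1 encode the chains of H2-DM, which loads peptides in endosomes. H2-DMa (chr17:34122831-34139101) had 687, 447, 792 and 722 in the controls, 2653, 2697 and 2871 in PBC and 2065, 1912 and 2135 in PSC, which gave changes of 2.08 ± 0.21 (adjusted p = 8.65e-05) in PBC and 1.65 ± 0.21 (adjusted p = 0.000284) in PSC. H2-DMb1 (chr17:34153190-34160229) had 206, 125, 266 and 201 in the controls, 617, 887 and 753 in PBC and 474, 535 and 682 in PSC, and its changes were 1.95 ± 0.27 (adjusted p = 0.000713) in PBC and 1.53 ± 0.27 (adjusted p = 0.00286) in PSC. For both genes every model liver was above every control. The second beta chain gene, H2-DMb2 (chr17:34145265-34151553), had 92.0, 104, 212 and 137 in the controls, 249, 315 and 284 in PBC and 137, 150.4 and 228 in PSC. Its change was 1.12 ± 0.31 (adjusted p = 0.0408) in PBC and 0.37 ± 0.31 (adjusted p = 0.461) in PSC. The PBC call of H2-DMb2 was lost without any 1 library other than control 3, with no filter on low values, under equal library totals, by edgeR, with only the compared groups in the fit, or without both control 2 and PBC 7 (adjusted p between 0.0512 and 0.123).

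H2-O, made of H2-Oa and H2-Ob, inhibits H2-DM and is best known from B cells and thymic epithelium. H2-Oa (chr17:34092340-34095234) had 46.6, 44.9, 94.5 and 63.9 in the controls, 124, 163 and 214 in PBC and 102, 167 and 112 in PSC, all PBC and PSC livers being above all controls. The change was 1.43 ± 0.34 (adjusted p = 0.0201) in PBC and 1.04 ± 0.34 (adjusted p = 0.0581) in PSC. The PBC call was lost without PBC 9 or control 1, with only the compared groups in the fit, or without both control 2 and PBC 7 (adjusted p between 0.0528 and 0.101), while H2-Oa was called in PSC without PBC 8 or control 3, or by DESeq2 (adjusted p between 0.0243 and 0.0493). H2-Ob (chr17:34238905-34245908) had 109, 60.3, 146 and 77.8 in the controls, 137, 234 and 203 in PBC and 76.9, 108 and 143 in PSC, with overlap between each model and the controls. Its changes were 1.00 ± 0.36 (adjusted p = 0.0917) in PBC, with a 95% interval of 0.23 to 1.77, and 0.19 ± 0.36 (adjusted p = 0.762) in PSC, with an interval of -0.58 to 0.96. In the stretches above, H2-Ob and H2-Eb1 both hold AGCAAC and GATTGG, whereas CTGATTGG is in that of H2-Eb1 alone. H2-Eb1 was called in both models and H2-Ob in neither, and the difference between the genes was not tested. Of the other class II genes holding CTGATTGG, H2-Aa was called in both models, H2-Oa in PBC alone and H2-Eb2 in neither. Of those searched and lacking it, H2-DMa and H2-DMb1 were called in both and H2-DMb2 in PBC alone. A link between these letters and the calls was not tested.

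Ciita (chr16:10480059-10527640), the coactivator of class II genes, had 46.6, 21.8, 43.4 and 84.7 in the controls, 204, 293 and 159 in PBC and 88.2, 102 and 46.0 in PSC. The 3 PBC livers were above all other livers, whereas 1 of the 3 PSC livers lay among the controls. Its change was 2.24 ± 0.44 (adjusted p = 0.00708) in PBC and 0.74 ± 0.44 (adjusted p = 0.283) in PSC, where the 95% interval was -0.21 to 1.70. PBC minus PSC was 1.49 ± 0.47 (adjusted p = 0.125), and Ciita was called there by DESeq2 (adjusted p = 0.0378). In the annotation Ciita overlaps Dexi on the opposite strand, and whether the authors' counting used strand is not given in the sources used here.

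**Figure D2:**
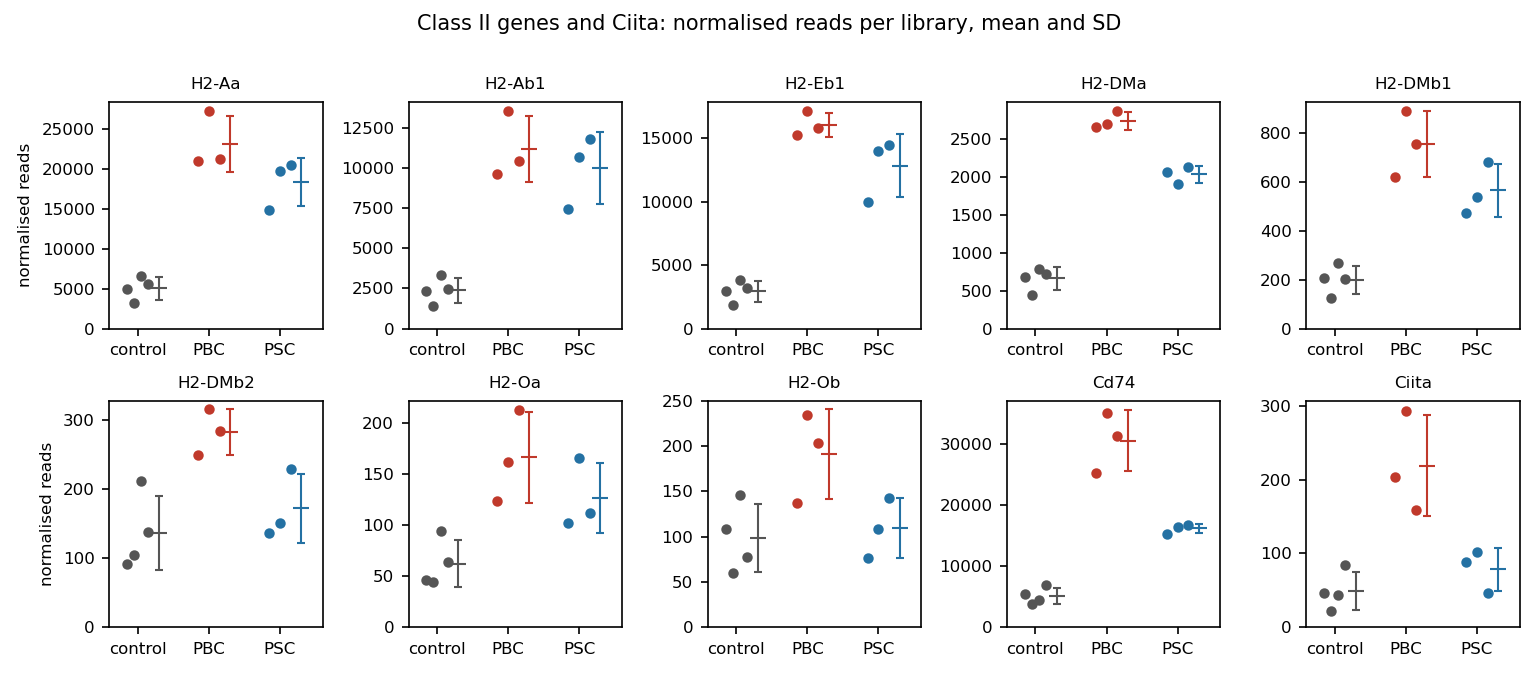
Normalised reads of 9 class II genes and Ciita in each liver, with the mean and SD beside each group (control n = 4, PBC n = 3, PSC n = 3), each panel having its own linear axis from 0. For H2-Aa, H2-Ab1, H2-Eb1, H2-DMa, H2-DMb1, H2-Oa and Cd74 every model liver lies above every control. For Ciita all 3 PBC livers and 2 of the 3 PSC livers do.

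Markers of cell types that make class II were read in the same livers, as summed normalised reads and as counts of called markers. These counts stand beside 7.6% of all tested genes called higher and 2.34% lower in PBC, and 8.25% and 6.48% in PSC. All 6 leukocyte markers were tested, and their sum was 6439 to 9424 in the controls, 18290.2 to 25927 in PBC and 14314 to 18161 in PSC, with 4 called higher in PBC and 3 in PSC. The 5 Kupffer cell markers summed to 24464 to 42065, 61145 to 89189 and 41111 to 58100.0 in the same order, so that PSC overlapped the controls. In PBC 4 of the 5 rose. In PSC no limma call was made, the changes of Timd4 (-0.65 ± 0.34, adjusted p = 0.215) and Cd163 (-0.87 ± 0.37, adjusted p = 0.131) being below 0 and those of Clec4f (0.51 ± 0.21, adjusted p = 0.124), Vsig4 and Cd5l above it. The 6 monocyte and macrophage markers summed to 6484 to 13600.2, 22963 to 42379 and 26301 to 31892, and 4 rose in each model. For 6 conventional dendritic cell markers the sums were 261 to 432, 453 to 916 and 649 to 750.4. These 6 did not move as one, since in PBC 4 rose (Flt3, Xcr1, Clec9a and Itgax) and Cd209a fell, from 15.8 ± 6.70 to 2.12 ± 3.68 normalised reads (mean ± SD, adjusted p = 0.0295), while in PSC 2 rose (Xcr1 and Itgax). Zbtb46, of the same list, was not called in PBC (-0.70 ± 0.37, adjusted p = 0.247) or in PSC (-0.67 ± 0.37, adjusted p = 0.244). The 5 B cell markers, 4 of which passed the filter, summed to 334 to 620.6 in the controls, 836 to 1255 in PBC and 158 to 279.8 in PSC. Of the 4, 1 rose in PBC (Cd79a) and 1 fell in PSC (Ms4a1). No marker of these lists was at 0 in every library of a group. The part of these cell types in the class II changes was not tested.

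Genes of endosomal processing, which prepare class II ligands, were read beside the members. Over all tested genes, 7.6% were called higher and 2.34% lower in PBC, and 8.25% and 6.48% in PSC. Of 9 genes of endosomal processing 6 rose in PBC and 7 in PSC, and 0 fell in either, also by edgeR, by DESeq2 and at an unadjusted p under 0.05. In PBC the calls were lost without both control 2 and PBC 7 (adjusted p = 0.0506) for Ctsb, without PBC 7 or PBC 9, or without both control 2 and PBC 7 (adjusted p between 0.0506 and 0.0891) for Ctsd and without PBC 9 or control 1, with only the compared groups in the fit, or without both control 2 and PBC 7 (adjusted p between 0.0523 and 0.0878) for Cd63, whose change was 0.89 without PBC 9. Ctss, the protease that makes the last cuts in Cd74, had 4889, 3619.8, 3857 and 4751 in the controls, 11474, 19178 and 14228 in PBC and 17212, 10725 and 10700.1 in PSC, with changes of 1.79 ± 0.23 (adjusted p = 0.000488) in PBC and 1.56 ± 0.23 (adjusted p = 0.000961) in PSC. Ifi30, a lysosomal thiol reductase, had 1034, 661, 1106 and 1368 in the controls, 2773, 3736 and 3595 in PBC and 2909.5, 1873 and 2726 in PSC, with changes of 1.73 ± 0.25 (adjusted p = 0.00102) and 1.28 ± 0.25 (adjusted p = 0.00546). Between the models only Cd9 and Cd63 were called, tetraspanins that were lower in PBC than in PSC, with differences of -1.22 ± 0.28 (adjusted p = 0.0404) and -2.03 ± 0.38 (adjusted p = 0.0149). The Cd9 call was lost without PSC 11, PSC 13, PSC 14, PBC 7, PBC 8 or control 2, or without both control 2 and PBC 7 (adjusted p between 0.052 and 0.151), and that of Cd63 without PSC 13, PSC 14 or PBC 7, or without both control 2 and PBC 7 (adjusted p between 0.0601 and 0.0879). Of 5 general chaperones of the endoplasmic reticulum (Calr, Canx, Hspa5, Pdia4 and Pdia6), 3 rose in PBC (Calr, Pdia4 and Pdia6) and 2 in PSC (Calr and Pdia4). In PBC these calls were lost without PBC 7, PBC 9, control 1 or control 4, with no filter on low values, with only the compared groups in the fit, or without both control 2 and PBC 7 (adjusted p between 0.0561 and 0.123) for Calr, without PBC 7 or PBC 9 (adjusted p between 0.0537 and 0.0635) for Pdia4 and without any 1 library other than control 2, PBC 8 and PSC 13, with no filter on low values, under TMM scaling, under equal library totals, by edgeR, with only the compared groups in the fit, or without both control 2 and PBC 7 (adjusted p between 0.0544 and 0.134) for Pdia6. In PSC they were lost without PSC 11 or PSC 14 (adjusted p between 0.0647 and 0.0929) for Calr and without PSC 11, PSC 14 or control 1 (adjusted p between 0.0641 and 0.0957) for Pdia4.

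Fewer of the class I chains were called. Of 17 tested class I heavy chains and B2m, 7 rose in PBC (H2-K1, H2-D1, H2-Q4, H2-Q6 // H2-Q8, H2-Q7 // H2-Q9, H2-T23 and H2-M2) with a median change of 0.71 over the 17. In PSC 3 rose (H2-D1, H2-Q1 and H2-M2), with a median of 0.34. H2-K1 (chr17:33996013-34000347), which presents peptides to CD8 T cells, had 83550.2, 88587, 67579.5 and 107878 in the controls, 189589, 171695 and 233445 in PBC and 109198, 104901 and 118593 in PSC. It was 2.29-fold higher in PBC, with every PBC liver above every other liver (1.20 ± 0.22, adjusted p = 0.00442), and was not called in PSC (0.37 ± 0.22, adjusted p = 0.282). H2-D1 (chr17:35263026-35267497), the other classical chain, had 55957, 48732, 51849 and 61084 in the controls, 106232, 119857 and 138904 in PBC and 84513, 81953 and 93403 in PSC. Here the 3 groups did not overlap, and the changes were 1.16 ± 0.19 (adjusted p = 0.00234) in PBC and 0.67 ± 0.19 (adjusted p = 0.0331) in PSC. The PSC call of H2-D1 was lost without PSC 11, PSC 13, PSC 14, control 1 or control 2, with no filter on low values, or without both control 2 and PBC 7 (adjusted p between 0.0717 and 0.151). B2m (chr2:122147685-122153083), the light chain shared by all class I molecules, had 208756, 185939, 166148 and 214614 in the controls, 306631, 281725 and 361710.0 in PBC and 281930.0, 217092 and 228499 in PSC. All 6 model livers were above all controls, and neither change was called (0.71 ± 0.22, adjusted p = 0.0629 in PBC and 0.32 ± 0.22, adjusted p = 0.366 in PSC). B2m was called in PBC without PBC 8, with the stricter filter, by edgeR, or by DESeq2 (adjusted p between 0.00919 and 0.0486).

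Levels of different genes can be compared only per length, so mean normalised reads were divided by the annotated exon length. In the controls B2m stood highest, at 225424 per kilobase, followed by H2-Q10 at 51047, H2-K1 at 29578 and H2-D1 at 21096. H2-Q10 encodes a secreted class I molecule made by hepatocytes. It had 198566, 173731, 273051 and 242456 in the controls, 269862, 156120.0 and 211051 in PBC and 182120.0, 186631 and 221457 in PSC, the 3 groups overlapped, and neither change was called (-0.08 ± 0.26, adjusted p = 0.882 in PBC and -0.16 ± 0.26, adjusted p = 0.721 in PSC). In PBC the mean of H2-K1 per kilobase, 67476, was above that of H2-Q10, 48837, whereas in the controls and in PSC H2-Q10 was the higher of the pair (45248 against 37746 in PSC). The PBC ranges of H2-K1 and H2-Q10 per kilobase overlapped (58439 to 79457 for H2-K1 and 35906 to 62066 for H2-Q10). Exon lengths joined all annotated transcripts, and such an order depends on them. Among class II genes, Cd74 per kilobase was 3077 in controls and 18151 in PBC, and H2-Aa was 1333 and 6102.

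Of the 14 nonclassical class I chains, 5 rose in PBC and 2 in PSC. H2-T23, the heavy chain of Qa-1, had 41846, 28841, 37784 and 40569 in the controls, 60953, 50939 and 63924 in PBC and 43373, 45383 and 49602 in PSC. Its change was 0.66 ± 0.19 (adjusted p = 0.0476) in PBC and 0.32 ± 0.19 (adjusted p = 0.293) in PSC. That PBC call was lost without any 1 library other than PBC 8, with no filter on low values, under equal library totals, by edgeR, with only the compared groups in the fit, or without both control 2 and PBC 7 (adjusted p between 0.0506 and 0.21). H2-M2 showed the largest change of any member from low control values, with 3.89, 29.5, 0 and 16.7 in the controls, 92.0, 148 and 74.1 in PBC and 77.8, 71.2 and 107 in PSC. All model livers were above all controls, and the changes were 3.82 ± 0.89 (adjusted p = 0.0172) in PBC and 3.57 ± 0.89 (adjusted p = 0.0182) in PSC. Control 3 was at 0, and the size depended on the setting. It ran from 2.50 to 4.58 in PBC, and from 2.27 to 4.27 in PSC, where leaving out control 2 or control 3 was among the settings that moved it. H2-M2 lost its PBC call without PBC 9, or with only the compared groups in the fit (adjusted p between 0.0513 and 0.0591), and its PSC call without PSC 11, PSC 13 or PSC 14 (adjusted p between 0.0502 and 0.0847). H2-M3, which presents formylated peptides, was not called (0.50 ± 0.26, adjusted p = 0.244 in PBC and 0.34 ± 0.26, adjusted p = 0.415 in PSC), nor were H2-T22, H2-T24, H2-Q2, H2-Bl and H2-T10 against the controls. H2-T10 was called in PBC without PBC 8 or control 3, or with the stricter filter (adjusted p between 0.00866 and 0.0485). The pseudogene H2-K2 and H2-Ke6 // Slc39a7 were not called in any comparison, although H2-Ke6 // Slc39a7 was called in PBC without control 2 (adjusted p = 0.0271). The pseudogene H2-T-ps was called in PSC (1.37 ± 0.33, adjusted p = 0.0152). That call was lost without PSC 11 or PSC 14 (adjusted p between 0.076 and 0.0858).

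**Figure D3:**
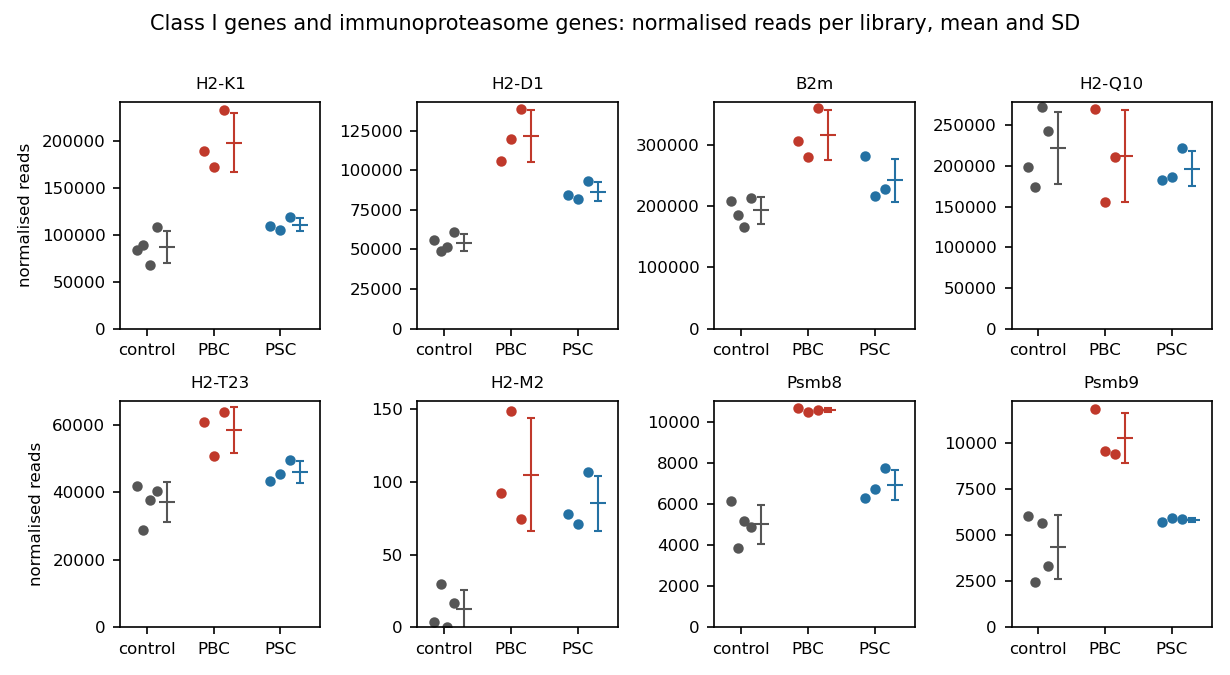
Normalised reads of 4 class I genes at high level (top), of H2-T23 and H2-M2, and of the immunoproteasome genes Psmb8 and Psmb9 in each liver, with the mean and SD beside each group (control n = 4, PBC n = 3, PSC n = 3) on linear axes from 0. The PBC livers lie above all other livers for H2-K1, H2-D1, H2-T23, Psmb8 and Psmb9, and the groups overlap for H2-Q10.

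Near-identical H2 genes can share reads, and how the authors assigned such reads is not given in the sources used here. Of the 75-base words of each gene's transcripts in GENCODE M21, 21.2% were also in another gene for H2-Q5, 17.9% for H2-Q6, 17% for H2-Q7, 18.5% for H2-T22, 12.5% for H2-Q10 and 10.9% for H2-Q1. The shares were 5.4% for H2-D1 and 3.1% for H2-K1. H2-Q8 and H2-Q9 are not in that annotation, so the shares of H2-Q6 and H2-Q7 leave out what these shared with them. Other chains were lower, at 7.02% for H2-Q4, 5.91% for H2-T23 and 0.459% for H2-T24. The pseudogene H2-T-ps shared 11%, with 7.35% of its words in H2-Q1, and overlaps Gm7030 on the same strand. H2-T-ps and H2-Q1 were the members called in PSC alone. Outside class I chains, 15.8% of H2-DMb1 and 16.1% of H2-DMb2 was shared, mostly between the pair, and 22.9% of Psme2. The share was 0% for H2-Aa, H2-Ab1, H2-Eb1, H2-DMa, Cd74, B2m, Tap1, Tap2, Nlrc5 and Ciita. Values of genes with high shares are less certain than those of genes at 0%.

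Of the 11 genes of class I peptide supply 8 rose in PBC, with a median change of 1.09, and 3 rose in PSC (Tap2, Psmb10 and Pdia3), with a median of 0.49. Tap1 (chr17:34187552-34197225), a subunit of the peptide transporter, had 1294, 856, 948 and 999.6 in the controls, 3785, 4765 and 3039 in PBC and 1578, 1556 and 1177 in PSC. All PBC livers were above all others, the change was 1.91 ± 0.21 (adjusted p = 0.000199) in PBC, and PSC did not differ from the controls beyond the threshold (0.49 ± 0.21, adjusted p = 0.142). Its partner Tap2 rose in both models (1.59 ± 0.19, adjusted p = 0.000308 in PBC and 0.77 ± 0.19, adjusted p = 0.019 in PSC), although the PSC call was lost without PSC 11 or PSC 14 (adjusted p between 0.0786 and 0.0908). Tapasin (Tapbp), which links TAP to class I, changed by 1.23 ± 0.25 (adjusted p = 0.00815) in PBC, and its relative Tapbpl by 0.55 ± 0.20 (adjusted p = 0.1). Pdia3, an oxidoreductase of the loading complex, rose in PBC (0.64 ± 0.19, adjusted p = 0.0475) and in PSC (0.66 ± 0.19, adjusted p = 0.0331). Its PBC call was lost without any 1 library other than control 2 and PBC 8, with no filter on low values, under TMM scaling, under equal library totals, by edgeR, with only the compared groups in the fit, or without both control 2 and PBC 7 (adjusted p between 0.0609 and 0.142). Its PSC call was lost without PSC 11, PSC 14, control 1 or control 4, or with no filter on low values (adjusted p between 0.067 and 0.148). Erap1, which trims peptides, was not called in PBC (0.47 ± 0.20, adjusted p = 0.159) or in PSC (-0.26 ± 0.20, adjusted p = 0.426).

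All 3 catalytic subunits of the immunoproteasome rose in PBC. Psmb8 (chr17:34198195-34201454) had 6179, 3870.1, 5204 and 4883 in the controls, 10710.5, 10480.4 and 10608 in PBC and 6295, 6766 and 7750.2 in PSC, every PBC liver being above every other liver. The changes of Psmb8 were 1.09 ± 0.18 (adjusted p = 0.00258) in PBC and 0.48 ± 0.18 (adjusted p = 0.0984) in PSC. Psmb9 (chr17:34181988-34187375), which lies beside Tap1 and overlaps it on the opposite strand, had 6016, 2472, 5630.1 and 3350.1 in the controls, 11815, 9548 and 9401 in PBC and 5690.5, 5915 and 5855 in PSC. Controls ranged widely and overlapped PSC, and the changes were 1.32 ± 0.27 (adjusted p = 0.0089) in PBC and 0.51 ± 0.27 (adjusted p = 0.231) in PSC. Its PBC call was lost without both control 2 and PBC 7 (adjusted p = 0.0544). Psmb10 changed by 1.17 ± 0.19 (adjusted p = 0.00237) in PBC and by 0.65 ± 0.19 (adjusted p = 0.0395) in PSC, the PSC call being lost without any 1 library other than control 4, PBC 8 and PBC 9, with no filter on low values, under equal library totals, or without both control 2 and PBC 7 (adjusted p between 0.0515 and 0.167). Psme1, part of the PA28 cap of the proteasome, rose in PBC (0.80 ± 0.21, adjusted p = 0.0289), a call lost without PBC 7, PBC 9, control 1 or control 2, with only the compared groups in the fit, or without both control 2 and PBC 7 (adjusted p between 0.0554 and 0.178). The other PA28 subunit Psme2 was not called in PBC (0.35 ± 0.22, adjusted p = 0.332) or in PSC (0.20 ± 0.22, adjusted p = 0.576). Of 16 genes of the constitutive proteasome and its other caps, 0 were called in PBC or PSC by limma, edgeR or DESeq2, and 0 had an unadjusted limma p under 0.05, with median changes of 0.04 and 0.20. Limma called 7.6% of all tested genes higher and 2.34% lower in PBC, and 8.25% and 6.48% in PSC, so few calls would be awaited among 16 genes.

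**Figure D4:**
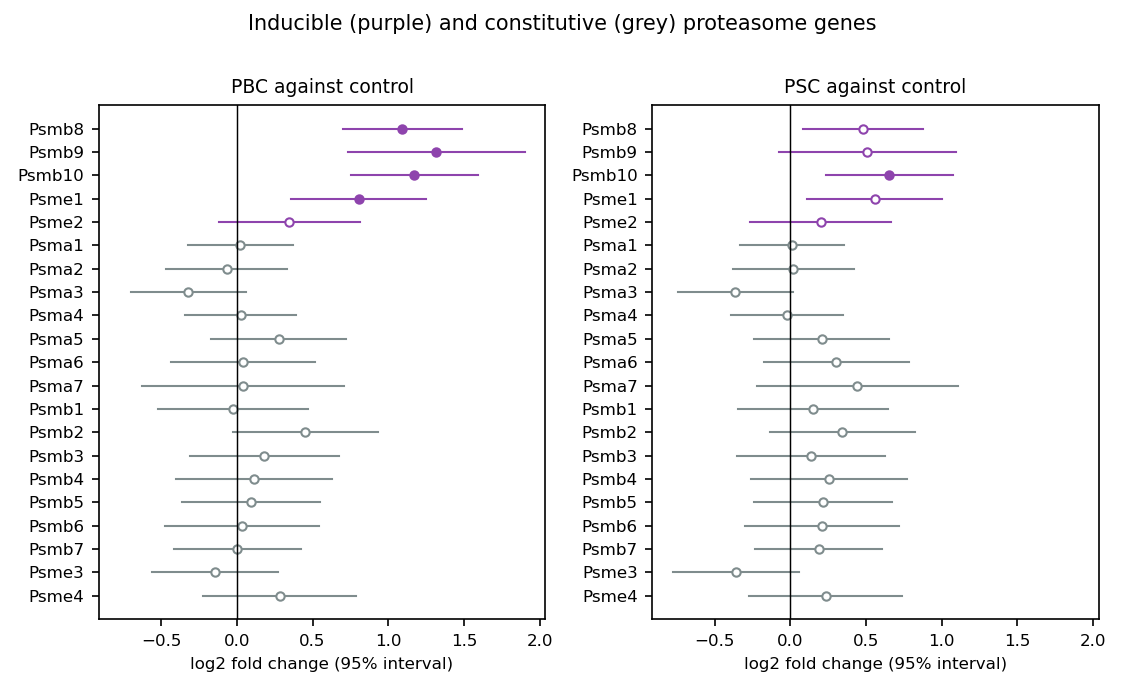
Change of immunoproteasome and PA28 members beside 16 genes of the constitutive proteasome and its other caps against the 4 control livers, on the log2(normalised reads + 1) scale, in PBC (left) and PSC (right), with inducible genes in purple and the others in grey. Points are limma estimates, filled where called, and bars are 95% intervals. The constitutive genes have medians of 0.04 in PBC and 0.20 in PSC, whereas Psmb8, Psmb9 and Psmb10 were called in PBC.

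Class II and class I were set against each other within each library as the mean log2(normalised reads + 1) of the 10 class II genes minus that of the 17 class I genes. The difference was -2.62 in the controls, from -3.16 to -2.24. It was -1.63 in PBC (-1.85 to -1.26) and -1.75 in PSC (-1.95 to -1.52). Controls and models did not overlap, and class II thus gained 0.99 on class I in PBC and 0.87 in PSC. PBC and PSC ranges overlapped, with a difference of 0.12. The means themselves were 8.59 for class II and 11.21 for class I in the controls, 10.37 and 12.00 in PBC, and 9.89 and 11.64 in PSC. These values carry no test. With H2-K1, H2-D1 and B2m alone as class I, the gains were 0.76 in PBC and 0.84 in PSC, and PBC minus PSC was -0.09.

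Between PBC and PSC, 0 of 10 class II genes were called by limma or edgeR and 1 by DESeq2, and 2 had an unadjusted limma p under 0.05. The median difference was 0.40. Cd74 came closest (0.90 ± 0.23, adjusted p = 0.0584), its 3 PBC livers being above its 3 PSC livers, and was called without control 2 or control 4, with a pseudocount of 10, by DESeq2, or with only the compared groups in the fit (adjusted p between 0.00994 and 0.0459). Over the 17 class I chains and B2m the median was 0.39, with 4 called higher and 1 lower, and of H2-K1, H2-D1 and B2m 0 were called by limma or edgeR and 1, H2-K1, by DESeq2, while 2 had an unadjusted limma p under 0.05. Whether class I differed from class II in this comparison was not tested. The 6 members called higher in PBC than in PSC were 4 nonclassical class I chains (with the polymorphic pseudogene H2-Q5), Tap1 and Nlrc5. The clearest was H2-Q6 // H2-Q8, which had 1206, 954, 948 and 1389.7 in the controls, 1947, 2789.8 and 2465 in PBC and 930.4, 823 and 767 in PSC, a PBC minus PSC difference of 1.50 ± 0.22 (adjusted p = 0.00344), with all PBC livers above all other livers. H2-Q7 // H2-Q9, which encode Qa-2, had 9172, 7539.9, 12098 and 9431 in the controls, 18979, 17797 and 24446 in PBC and 8911, 9740.1 and 11306 in PSC and a difference of 1.02 ± 0.21 (adjusted p = 0.0251). H2-Q4 had 3402, 2809, 2473 and 3369.5 in the controls, 6147, 7544 and 6680.2 in PBC and 4097, 3825 and 3714 in PSC and a difference of 0.80 ± 0.19 (adjusted p = 0.0415). H2-Q5 had 168, 112, 194 and 199 in the controls, 269, 314 and 307 in PBC and 122, 131 and 139.7 in PSC and a difference of 1.17 ± 0.28 (adjusted p = 0.0445). For these 4 the PBC and PSC livers did not overlap, but they were picked by their call in this comparison, so that is not separate support. Some uncalled members, among them H2-Eb1 and H2-Aa, did not overlap between the models either. The 4 called chains all belong to the group of genes that share sequence. H2-Q1, of the same group, went the other way, with 2549, 2887, 6253 and 4130.3 in the controls, 2947, 3413 and 2668 in PBC and 9366, 6198 and 6871 in PSC. It was lower in PBC than in PSC, with a difference of -1.30 ± 0.30 (adjusted p = 0.0388), and higher in PSC than in the controls (0.99 ± 0.28, adjusted p = 0.0316), where the ranges overlapped.

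Tap1 differed between PBC and PSC by 1.41 ± 0.23 (adjusted p = 0.00654). Its call was lost without PSC 14 (adjusted p = 0.0544). Nlrc5 (chr8:94472763-94527272), the coactivator of class I genes, had 372, 352, 194 and 209.6 in the controls, 644, 677 and 326 in PBC and 172, 218 and 112 in PSC. PBC and PSC did not overlap and differed by 1.69 ± 0.37 (adjusted p = 0.032), while neither model was called against the controls (0.95 ± 0.35, adjusted p = 0.0993 in PBC and -0.74 ± 0.35, adjusted p = 0.17 in PSC). Only H2-Q6 // H2-Q8 kept its call between the models under all 19 alternatives. That of H2-Q7 // H2-Q9 was lost without PSC 11, PSC 13, PSC 14, PBC 7 or PBC 9, or without both control 2 and PBC 7 (adjusted p between 0.0579 and 0.115). That of H2-Q4 was lost without any 1 library other than control 2, control 3 and control 4, under equal library totals, or without both control 2 and PBC 7 (adjusted p between 0.0618 and 0.195). For H2-Q5 the call was lost without any 1 library other than control 2, control 3 and control 4, with no filter on low values, under equal library totals, or without both control 2 and PBC 7 (adjusted p between 0.0563 and 0.157), and for Nlrc5 without PSC 11, PSC 13, PSC 14, PBC 7 or PBC 8, under equal library totals, or without both control 2 and PBC 7 (adjusted p between 0.0595 and 0.175). The lower call of H2-Q1 was lost without PSC 11, PSC 13, PSC 14, PBC 7, PBC 8 or PBC 9, or without both control 2 and PBC 7 (adjusted p between 0.0591 and 0.14). H2-Q1 was also not called in PSC against controls without PSC 11, PSC 13, PSC 14, control 1 or control 2, or without both control 2 and PBC 7 (adjusted p between 0.055 and 0.133). Without control 2 and PBC 7, 2 members were called higher and 0 lower.

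**Figure D5:**
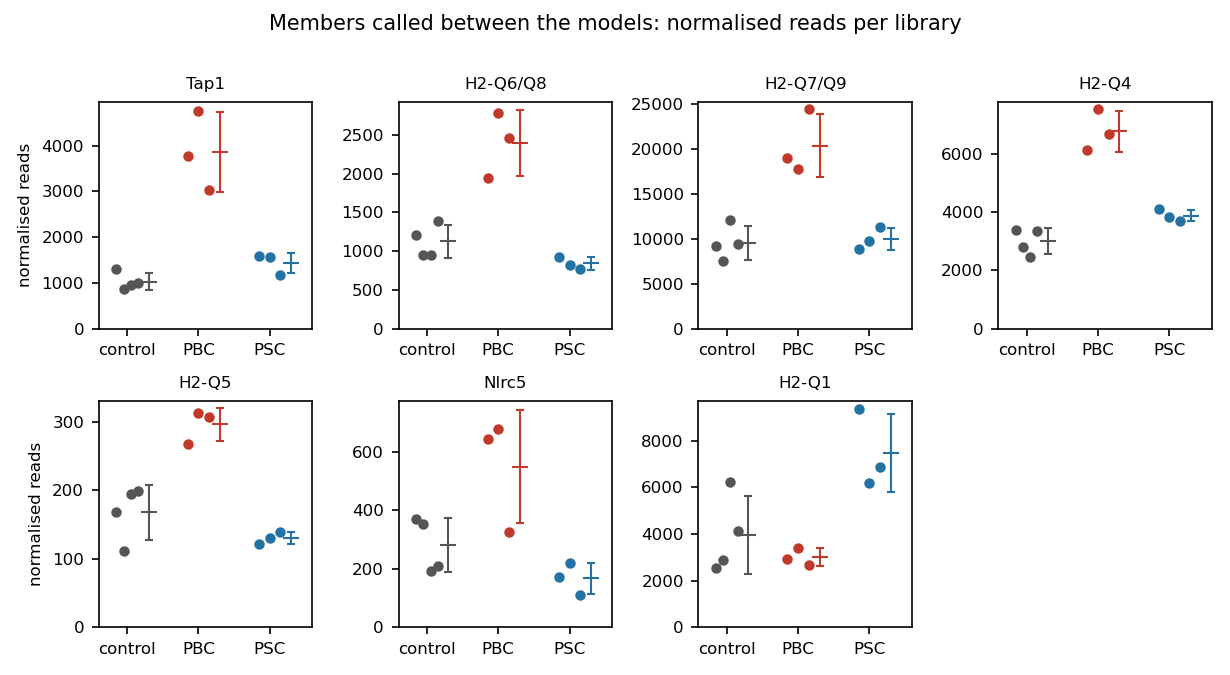
Normalised reads of the 7 members called between PBC and PSC in each liver on linear axes from 0, with the mean and SD beside each group (control n = 4, PBC n = 3, PSC n = 3). In every panel the PBC and PSC livers do not overlap, with PSC higher for H2-Q1 and PBC higher for the other 6 members. The 7 were picked by their call in this comparison, so the lack of overlap is not separate support.

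Interferon gamma is a classical inducer of both MHC classes, in part through CIITA. Of 17 regulators of MHC genes and interferon gamma signalling, 4 rose in PBC (Ifng, Socs1, Irf8 and Spi1) and 0 fell by any of the 3 tools or at an unadjusted p under 0.05. In PSC 2 rose (Irf8 and Spi1) and 1 fell, Nfyb (-0.75 ± 0.19, adjusted p = 0.0204). Over all tested genes, 7.6% were called higher and 2.34% lower in PBC, and 8.25% and 6.48% in PSC. The PSC call of Irf8 was lost without PSC 11, PSC 14, control 1 or control 2, under equal library totals, or without both control 2 and PBC 7 (adjusted p between 0.0631 and 0.137), and that of Nfyb without PSC 11, PSC 13 or PSC 14, or without both control 2 and PBC 7 (adjusted p between 0.0516 and 0.116). Ifng itself had few reads, with 2.59, 2.57, 15.3 and 5.55 in the controls, 54.7, 51.0 and 29.6 in PBC and 3.75, 6.47 and 9.86 in PSC. It was higher in PBC than in the controls by 2.87 ± 0.68 (adjusted p = 0.0188), and not called in PSC (0.26 ± 0.68, adjusted p = 0.833). Its PBC minus PSC difference was 2.62 and was not called. Some alternatives called that difference, among them limma with a pseudocount of 10 (adjusted p = 0.0205) and DESeq2 (adjusted p = 0.0109). With a pseudocount of 10 the PBC change of Ifng was 1.77. Outside PBC only control 3 reached 10 normalised reads, so Ifng passed the filter through the PBC livers. Its PBC call was lost without PBC 7 or control 1, or without both control 2 and PBC 7 (adjusted p between 0.0509 and 0.108). Socs1, an inhibitor of interferon signalling, was higher in PBC than in PSC by 1.51 ± 0.33 (adjusted p = 0.032), a call lost without PSC 11, PSC 13, PSC 14, PBC 7 or PBC 8, under equal library totals, or without both control 2 and PBC 7 (adjusted p between 0.0606 and 0.131). Irf1 was not called in PBC (0.72 ± 0.41, adjusted p = 0.282) or in PSC (-0.19 ± 0.41, adjusted p = 0.797). T cells and NK cells are the usual sources of Ifng, and 5 T cell markers, all tested, summed to 317 to 600.3 normalised reads in the controls, 1625 to 2101 in PBC and 365 to 442 in PSC. No T cell marker was at 0 in every library of a group. The part of T cells in the PBC values of Tap1, Nlrc5 and the H2-Q genes was not tested.

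Of 7 MHC-like presenting molecules encoded outside the MHC, 1 rose in each model, where 7.6% of all tested genes were called higher in PBC and 8.25% in PSC. It was Procr, by 1.74 ± 0.32 (adjusted p = 0.00449) in PBC and 1.29 ± 0.32 (adjusted p = 0.0182) in PSC. Its PSC call was lost without PSC 11, PSC 14 or control 1 (adjusted p between 0.0534 and 0.0957). Cd1d1, which presents the α-galactosylceramide given to the PBC mice, had 19906, 17529, 17963 and 21361 in the controls, 13709.6, 19697 and 13782 in PBC and 13521, 16265 and 12991 in PSC, and was not called in PBC (-0.30 ± 0.19, adjusted p = 0.331) or in PSC (-0.43 ± 0.19, adjusted p = 0.143). A list of 6 ligands and receptors that adjust T cell activation held inhibitory genes as well, namely Cd274 and Pdcd1lg2, which encode the ligands of the inhibitory receptor PD-1. Of the 6, 2 rose in PBC, the co-stimulatory Cd86 by 0.93 ± 0.22 (adjusted p = 0.0187) and the inhibitory Pdcd1lg2 by 3.80 ± 0.95 (adjusted p = 0.0244). With a pseudocount of 10 the change of Pdcd1lg2 was 1.67. Pdcd1lg2 had 2.59, 2.57, 0 and 0 in the controls, 32.3, 15.9 and 31.7 in PBC and 4.69, 0 and 1.64 in PSC. It passed the filter only through the PBC livers, where it was high, so its call is not independent of its entry. The Cd86 call was lost without PBC 7 or control 1, under equal library totals, with only the compared groups in the fit, or without both control 2 and PBC 7 (adjusted p between 0.0511 and 0.0856), and that of Pdcd1lg2 without PBC 7 or PBC 9, or without both control 2 and PBC 7 (adjusted p between 0.0872 and 0.1). In PSC 0 of the 6 were called by limma or edgeR and 1 by DESeq2, and 1 had an unadjusted limma p under 0.05. The 5 cholangiocyte markers, which mark bile ducts, summed to 7637 to 13135 normalised reads in the controls, 10039 to 13534 in PBC and 53783 to 94685 in PSC. Most of each sum was Spp1, which was not called in PBC (0.32 ± 0.25, adjusted p = 0.453). Of the 5, 2 rose in PBC, Krt19 (1.13 ± 0.33, adjusted p = 0.046) and Sox9 (1.41 ± 0.29, adjusted p = 0.00966), and all 5 rose in PSC.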

How the data were processed

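RNA of 10 mouse livers was measured by bulk sequencing of poly(A) libraries (TruSeq stranded mRNA, paired reads, per the labels' protocols). The deposited signal holds DESeq2-normalised reads for each gene model, scaled by the authors. Per the submitters' processing notes, the build was mm10, the aligner was STAR 2.4.0, and FastQC, Picard, SAMtools and DESeq2 were also run. How reads were counted, with or without strand, and how those matching more than 1 gene were treated was not given in the sources used here. All checked values were whole multiples of 1 step per library (tolerance 0.1), so reads were recovered by division, giving 38272053 to 95422289 per library.

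Genes that reached 10 normalised reads in 3 or more libraries entered a fit with limma (3.58.1, R 4.3.3), with an intensity trend, on log2(value + 1), all 10 libraries sharing 1 estimate of the spread. On this scale the added 1 shrinks changes of low genes, but a library at 0 can widen them. H2-M2 had mean normalised reads of 12.5 in the controls, 104.7 in PBC and 85.3 in PSC. Its folds on this scale were 14.1 in PBC and 11.9 in PSC. P-values were adjusted over 18390 genes by the method of Benjamini and Hochberg, with a threshold of 0.05. They measure the spread between mice. Alternatives were a pseudocount of 10, no filter, a filter at 50, TMM scaling, equal library totals, edgeR 4.0.16 and DESeq2 1.42.0 on recovered reads, only the compared groups, and each library left out. The omission of control 2 with PBC 7, a library doubted in earlier results of these data, and other class I sets, were chosen after seeing the data. Scripts were tested on simulated data. Exon lengths, overlaps and shared 75-base words came from GENCODE M21.

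The members and all gene and marker lists were chosen with earlier results of these data known. Values in each library are given for a set of 16 members chosen by role, for members called between PBC and PSC, and for fixed pathway genes. H2-Eb2, H2-DMb2, H2-Q10, H2-T23 and H2-M2 were added after their values were seen, as were pathway and marker genes named beside a small count. Of the pathway and marker lists, 2 genes are not reported here.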

Additional observations from a re-analysis of the deposited data

Results flagged for a closer look

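Among the 43 tested members, 1 had a control liver far from the other 3 by Dixon's criterion. Erap1, the peptidase that trims class I ligands in the endoplasmic reticulum, had 2919.8 normalised reads in control 3. The gap to the next control was 0.883 of the range of the 4 controls, above the 95% critical value for 4 samples. Chance alone flags about 1 in 20 groups of this size. Erap1 was not called in any comparison.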

How the results depend on the processing

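No paired analysis was possible because the groups share no replicate number. The class II gain on class I kept its direction in both models under every alternative run for it, from 0.76 to 1.26 in PBC and from 0.69 to 1.16 in PSC. For PBC minus PSC, which was not a call, it ran from -0.09 to 0.23. Of the members called, 17 of 24 in PBC, 6 of 13 in PSC and 1 of 7 between the models kept their call in all 19 alternatives, and no called member changed direction. With 1 library left out, the count of members higher in PSC ran from 6 to 14, that of members higher in PBC than in PSC from 1 to 8, and that of members lower in PBC than in PSC from 0 to 1. Members higher in PBC than in PSC numbered 3 under equal library totals and 10 by DESeq2, and without control 2 and PBC 7 there were 2 higher and 0 lower. The cause was not tested. Equal library totals moved the median of all genes by -0.13 in PBC against control, with no called member changing direction. Precision is limited by 3 or 4 mice per group, and for H2-M2, H2-Eb2 and H2-Bl by few reads. Values of several H2-Q and H2-T genes, of H2-DMb1 and H2-DMb2 and of Psme2 are further limited by shared sequence.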
